A study of Mus musculus with 4 samples.

Results

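The genes of 9 chemokines and of interleukin 6 were followed by symbol through single-cell RNA-sequencing (scRNA-seq) of vascular smooth muscle cells (VSMCs) from mouse atherosclerotic plaques and ligated carotid arteries. *Ccl2*, *Ccl7*, *Ccl8*, *Ccl11*, *Cxcl1*, *Cxcl2*, *Cxcl5*, *Cxcl12*, *Cxcl14* and *Il6* are 10 of the 34469 genes listed in at least 1 of 4 libraries. All 10 were listed in the plaque libraries, whereas the ligation libraries listed 9 and not *Ccl11*. Plaque cells came from plaques of the carotid arteries and of the aortic root and arch of C57Bl/6 (C57Bl6/J in the study's methods) mice carrying Myh11-CreERt2, the Confetti reporter and ApoE-/- (named ApoE-/-), or the same alleles together with Sm22a-Trf2T188A (named Trf2T188A/ApoE-/-). Both received tamoxifen at 6 weeks of age, which switches on Confetti in Myh11-expressing cells, and then a high fat diet for 14 weeks. Ligation cells came from carotid arteries of male mice of the same strain aged 4 to 5 months, either SM22a-TRF2T188A mice (named Trf2T188A) or wild-type littermates (control), collected 28 days after ligation and stripped of adventitia and of segments that had not remodelled. The minimal Sm22a promoter drives the TRF2 point mutant in arterial VSMCs, so both Trf2T188A groups model telomere damage in that cell type. There was 1 library per genotype in each experiment and the labels give no number of mice, so genotype and library cannot be told apart, no test across animals was possible, and every genotype difference given here is a difference between 2 libraries. All intervals are 95% intervals and cover counting error only. Those of log2 ratios of means count molecules and do not cover the spread between cells.

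Chemokines are small secreted proteins that direct the migration of leukocytes through receptors on those cells. The CC chemokines of this list (*Ccl2*, *Ccl7*, *Ccl8* and *Ccl11*), whose genes lie together on chromosome 11, chiefly attract monocytes and eosinophils, whereas *Cxcl1*, *Cxcl2* and *Cxcl5* attract neutrophils through the receptor CXCR2. *Cxcl12* signals through CXCR4 and is made continuously by many stromal cells, and *Il6* encodes the cytokine that signals through the IL6 receptor and gp130. Transcription of *Ccl2*, *Cxcl1*, *Cxcl2* and *Il6* is a textbook response to NF-kB, the transcription factor activated by IL1, TNF and Toll-like receptor ligands.

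RefSeq (GRCm38.p6) gave a promoter entry for 6 of the 10 genes. The 250 bases before the start site are printed 5′ to 3′ for *Cxcl1*, *Cxcl2*, *Il6* and *Cxcl12*, which are among the members the results turn on, with capitals marking matches to GGGNNNTTCC, an NF-kB type motif, on either strand (overlapping matches were joined into 1 stretch). The windows are chr5:90890995-90891244 for *Cxcl1*, chr5:90903649-90903898 for *Cxcl2*, chr5:30012864-30013113 for *Il6* and chr6:117168285-117168534 for *Cxcl12*, all on the plus strand.
Cxcl1: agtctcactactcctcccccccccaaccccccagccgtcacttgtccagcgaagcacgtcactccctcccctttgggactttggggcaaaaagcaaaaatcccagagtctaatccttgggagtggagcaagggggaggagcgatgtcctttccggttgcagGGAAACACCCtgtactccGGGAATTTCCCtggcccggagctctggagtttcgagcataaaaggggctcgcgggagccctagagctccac
Cxcl2: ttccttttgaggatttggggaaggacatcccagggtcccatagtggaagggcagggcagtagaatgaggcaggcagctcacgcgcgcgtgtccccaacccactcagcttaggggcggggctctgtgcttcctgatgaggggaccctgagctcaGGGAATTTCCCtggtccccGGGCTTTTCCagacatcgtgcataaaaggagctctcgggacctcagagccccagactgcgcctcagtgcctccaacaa
Il6: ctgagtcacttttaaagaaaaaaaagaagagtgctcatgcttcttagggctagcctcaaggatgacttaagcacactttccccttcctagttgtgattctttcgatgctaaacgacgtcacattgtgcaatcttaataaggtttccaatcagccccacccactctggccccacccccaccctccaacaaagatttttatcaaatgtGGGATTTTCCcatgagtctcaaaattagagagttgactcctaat
Cxcl12: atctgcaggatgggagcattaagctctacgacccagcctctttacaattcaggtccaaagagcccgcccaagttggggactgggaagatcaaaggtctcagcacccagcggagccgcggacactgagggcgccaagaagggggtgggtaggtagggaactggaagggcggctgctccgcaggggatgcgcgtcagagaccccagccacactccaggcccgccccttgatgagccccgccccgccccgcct
*Cxcl1* and *Cxcl2* each held 2 stretches, and GGGAATTTCCC, which matches on both strands, occurred in both of them, from 71 to 61 bases before the start of *Cxcl1* and from 97 to 87 bases before that of *Cxcl2*. *Il6* held GGGATTTTCC, from 44 to 35 bases before its start. *Cxcl12*, *Ccl8* and *Cxcl14* held no match in this window. Of all 32851 promoter windows of this length, 1527 (4.65%) held the motif, and a match describes these letters and not a binding site. *Ccl2*, *Ccl7*, *Ccl11* and *Cxcl5* had no entry. In the GENCODE annotation of GRCm38, *Cxcl1* (chr5:90891241-90893115) and *Cxcl2* (chr5:90903871-90905938) are separated by 10756 bases, and *Ccl2* (chr11:82035571-82037453) and *Ccl7* (chr11:82045712-82047525) by 8259 bases.

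The plaque libraries held 1502 ApoE-/- and 929 Trf2T188A/ApoE-/- cells, with medians of 22765.5 and 24377 unique molecular identifiers (UMIs, each standing for 1 captured RNA molecule) per cell. The ligation libraries held 4967 control and 5392 Trf2T188A cells, with medians of 8631 and 11153. A share of cells with a UMI moves with this depth. Shares called thinned come from cells drawn down to the same number of UMIs, 8000 in plaques and 5000 after ligation, and shares by library or by cluster that are not called thinned are at the full depth of each cell. The cells carried their label: 12 contractile genes summed to between 289 and 435 UMIs per 10000 in the 4 libraries, and *Acta2*, which encodes smooth muscle actin, was found in at least 98.2% of cells. A list of 11 myeloid markers summed to 0.166 and 0.299 UMIs per 10000 in plaque ApoE-/- and Trf2T188A/ApoE-/- and to 0.991 and 2.58 in ligation control and Trf2T188A. *Terf2*, the mouse gene of TRF2, had a UMI in 34%, 32%, 15% and 18.2% of cells of these 4 libraries in the same order, with means of 0.189, 0.18, 0.18 and 0.164 UMIs per 10000, and whether the transgene is counted under this symbol is not given in the sources used here. The plaque libraries shared no cell barcode and the ligation libraries shared 10.

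*Cxcl12* and *Cxcl1* were the most widely detected of the 10 genes in each of the 4 libraries, and *Ccl8*, *Ccl11*, *Cxcl5* and *Cxcl14* were rare. *Cxcl1*, a neutrophil chemokine, had a UMI in 38.9% of plaque ApoE-/- cells (12849 UMIs), 47.4% of plaque Trf2T188A/ApoE-/- cells (10007), 21.6% of ligation control cells (5204) and 28.9% of ligation Trf2T188A cells (10373). Its neighbour *Cxcl2* was found in 16.1%, 24.9%, 10.8% and 14.8% of cells in the same order, with 7559, 5557, 3651 and 11641 UMIs. For both genes the deeper library of each experiment, Trf2T188A, had the larger share at full depth, and the plaque libraries, which are deeper, had larger shares than the ligation libraries. *Cxcl5*, the third of the neutrophil chemokines, was found in 1.8% and 2.05% of plaque cells (291 and 192 UMIs) and in 0.181% and 0.204% of ligation cells (28 and 26 UMIs).

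Among the CC chemokines, *Ccl2*, the main monocyte chemoattractant, was the most widely detected, in 9.52% and 12.1% of plaque cells (2972 and 1826 UMIs) and in 3.06% and 5.3% of ligation cells (545 and 1264 UMIs). *Ccl7*, which attracts the same cells, was found in 5.53% and 6.03% of plaque cells and in 0.463% and 0.686% of ligation cells. *Ccl8* had 59 UMIs in 46 plaque ApoE-/- cells and 47 UMIs in 30 Trf2T188A/ApoE-/- cells, mostly 1 UMI in a cell. After ligation *Ccl8* had 4 UMIs in 3 control cells and 81 UMIs in 4 Trf2T188A cells, and 71 of the 81 were in 1 cell. *Ccl11*, an eosinophil chemokine, had 6 UMIs in 6 plaque ApoE-/- cells and 4 UMIs in 4 Trf2T188A/ApoE-/- cells, which is too few to describe further.

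*Il6* was found in 7.39% and 7.53% of plaque cells, with 610 and 537 UMIs in ApoE-/- and Trf2T188A/ApoE-/-, and in 1.35% and 2.02% of ligation cells, with 92 and 156 UMIs. *Cxcl12*, by contrast, was present in the majority of cells of each library: 58.6% and 60.9% in plaques (7345 and 5688 UMIs) and 52.2% and 55.8% after ligation (5910 and 8839 UMIs). *Cxcl14*, a chemokine of epithelial and stromal cells, was found in 1.8% and 3.01% of plaque cells (155 and 163 UMIs) and had 8 and 7 UMIs after ligation.

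**Figure D1:**
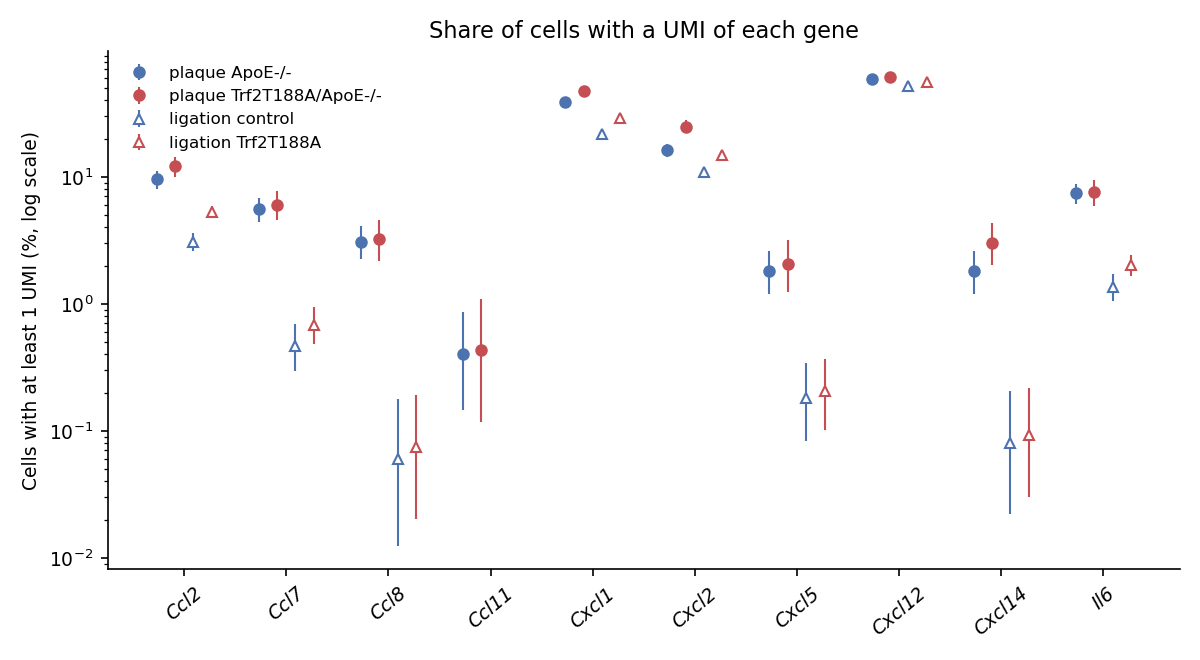
Share of cells with at least 1 UMI of each gene (vertical axis, percent, log scale) in the 4 libraries, before thinning. Points are libraries and bars are Clopper-Pearson 95% intervals. Cxcl12 and Cxcl1 have the largest shares in each library, and Ccl11 has points for the plaque libraries only because the ligation libraries do not list it.

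The transcripts of the inducible members were concentrated in few cells, whereas those of *Cxcl12* were spread. In plaque ApoE-/- the 5% of cells with the most UMIs of a gene held 97.7% of *Ccl2*, 94.7% of *Cxcl2*, 94.3% of *Il6* and 76.2% of *Cxcl1* UMIs, against 47.9% of *Cxcl12* UMIs. The plaque Trf2T188A/ApoE-/- library had the same order of *Cxcl1* and *Cxcl12* against the rest, with 95.4% for *Ccl2*, 87.1% for *Cxcl2*, 95.7% for *Il6*, 71.5% for *Cxcl1* and 44.5% for *Cxcl12*. A single cell could carry a large part of a gene. In plaque Trf2T188A/ApoE-/-, 1 cell with 237 *Il6* UMIs held 44.1% of that gene, and 1 with 905 *Cxcl2* UMIs held 16.3%. In plaque ApoE-/-, the highest cell held 45% of *Cxcl5* (131 UMIs), 19.7% of *Ccl7* (209 UMIs), 12.7% of *Cxcl2* (961 UMIs) and 1.78% of *Cxcl12* (131 UMIs). After ligation the highest cell held between 0.385% and 2% of *Cxcl12* or *Cxcl1* UMIs in either library. Means of the concentrated genes therefore rest on few cells.

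**Figure D2:**
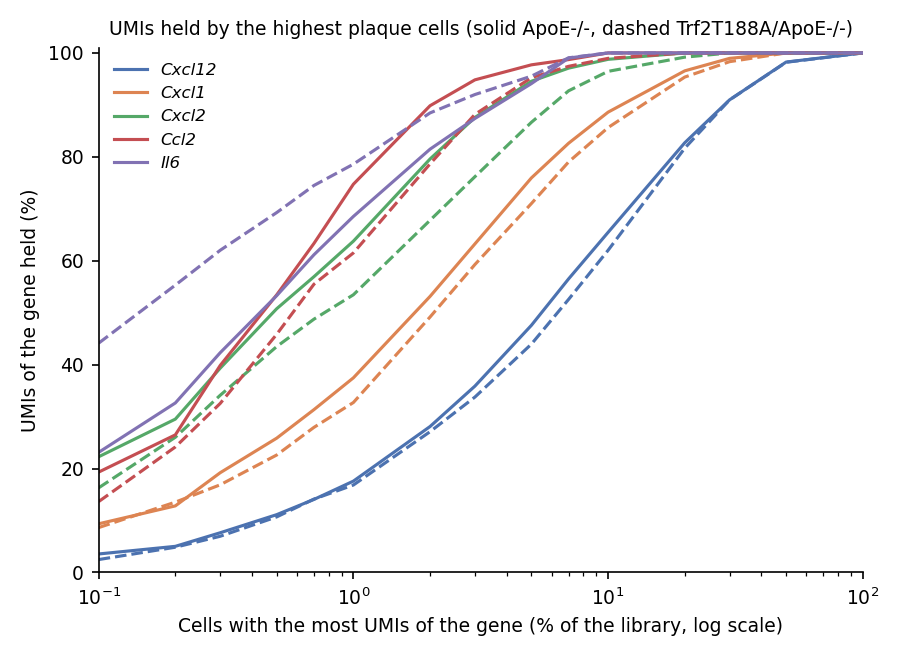
Percent of the UMIs of 5 genes (vertical axis) held by the plaque cells with the most UMIs of that gene (horizontal axis, percent of the library, log scale), with solid lines for ApoE-/- and dashed lines for Trf2T188A/ApoE-/-. The curve of Cxcl12 lies lowest in both libraries, at 47.9% and 44.5% for the top 5% of cells, and those of Ccl2, Cxcl2 and Il6 lie highest.

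Plaque cells were grouped into 12 clusters from variable genes that left out the 10 genes and the related pathway genes, so that no cluster was formed by the chemokines themselves. Clusters were named from marker lists, with limits for a name set after the values had been seen. They comprised 2 contractile-like clusters (490 and 420 cells), a metallothionein-rich intermediate-like cluster (405), a fibromyocyte-like cluster, the de-differentiated matrix-rich VSMC state (274), a cluster rich in long genes (201), a complement and acute-phase-like cluster marked by *C3*, *Cp* and *Lcn2* (200, called complement-like), a chondrocyte-like cluster (147), and 5 smaller ones. Values of a cluster are means over the cells of both libraries in UMIs per 10000, and clusters differ in depth, from a median of 8448 UMIs in the long-gene cluster of Trf2T188A/ApoE-/- to 35877 in the chondrocyte-like cluster of ApoE-/-.

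The inducible members were highest in modulated cells and low in contractile-like cells of plaques. The complement-like cluster had the highest mean of *Ccl2*, *Cxcl1*, *Cxcl2*, *Cxcl5* and *Il6* among the named classes (clusters of the same name joined), that is 5 of 9 genes with enough UMIs, in means over both libraries. In the ApoE-/- library alone the fibromyocyte-like cluster was higher for *Ccl2* (2.39 against 1.22 UMIs per 10000) and for *Cxcl2* (5.12 against 4.54). Over both libraries *Cxcl1* averaged 9.85 UMIs per 10000 in complement-like, 5.79 in chondrocyte-like, 5.29 in fibromyocyte-like and 5.08 in long-gene cells. The contractile-like clusters had 1.2 and 0.201. It had a UMI in 63%, 65.3% and 56.9% of complement-like, chondrocyte-like and fibromyocyte-like cells, and in 20.4% of the larger contractile-like cluster. After thinning the shares were 54.7% (47.4 to 62%), 47.8% (39.3 to 56.5%), 43.9% (37.7 to 50.3%) and 9.74% (7.19 to 12.8%) in the same order, so those of the 3 modulated clusters overlapped in their intervals and that of the contractile-like cluster lay below them. *Cxcl2* averaged 6.23 in complement-like and 3.8 in fibromyocyte-like cells and 0.0528 in the larger contractile-like cluster, and these former clusters together held 31.2% and 43.8% of its plaque UMIs.

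*Il6* and *Cxcl5* were concentrated in the complement-like cluster. The 200 cells of this cluster, 8.23% of all plaque cells, held 54.6% of the *Il6* UMIs of both libraries. This pooled share includes the 1 Trf2T188A/ApoE-/- cell that held 44.1% of the *Il6* UMIs of its library, so it leans on that cell. *Il6* was found in 30.5% of complement-like cells, with a mean of 0.95 UMIs per 10000, in 13.9% of fibromyocyte-like cells (mean 0.2) and in 1.22% of the larger contractile-like cluster (mean 0.00538). It was among the 10 genes with the largest fold in the complement-like cluster, although it had not been used to form it. *Cxcl5* had 78.5% of its plaque UMIs in complement-like cells, of which 16.5% had a UMI.

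The monocyte chemokines were found in the fibromyocyte-like and complement-like clusters, in an order that turned with the library for *Ccl2*. *Ccl2* was found in 25.2% of fibromyocyte-like cells, which held 51.1% of its UMIs (2126 in ApoE-/- and 328 in Trf2T188A/ApoE-/- cells), and in 32% of complement-like cells, which held 24%. *Ccl7* was found in 19.3% of fibromyocyte-like cells, with 62.5% of its UMIs, and in 13.5% of complement-like cells. The contractile-like clusters had a *Ccl2* UMI in 4.29% and 2.38% of cells, mostly a single one, at median depths between 21653 and 24295.5 UMIs against 34986.5 and 29840.5 in the fibromyocyte-like cells of the 2 libraries. No cell type known to lack *Ccl2* or *Il6* was kept in the plaque libraries, so these contractile-like shares are the nearest measure of background. After thinning, *Ccl2* was found in 19.6% of fibromyocyte-like cells (14.9 to 25%) and in 1.3% of the larger contractile-like cluster (0.478 to 2.81%).

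*Cxcl12* and *Cxcl14* followed other orders. *Cxcl12* averaged 7.24 UMIs per 10000 in complement-like cells, where 94.5% had a UMI, 3.13 in the metallothionein cluster (86.9%), 1.85 in fibromyocyte-like cells (71.2%) and 0.887 in the larger contractile-like cluster (56.3%). It was lowest in chondrocyte-like cells (0.24, 29.3% of cells), in which *Cxcl1* was among the highest, and in a cluster marked by *Pln* and *Notch3* (0.222, 19.4%). The highest *Cxcl12* mean of all, 27.9, belonged to a group of 13 cells with adventitial fibroblast markers, all from the ApoE-/- library and each with a UMI, in which *Il6* was also found in 61.5% of cells with a mean of 1.34. This did not hold for adventitial fibroblast-like cells in general. Another, larger cluster named from the same markers had no *Il6*, *Cxcl5* or *Cxcl14* UMI. Its *Cxcl12* mean lay below that of the larger contractile-like cluster. *Cxcl14* was found in 8.76% of fibromyocyte-like and 9.52% of chondrocyte-like cells, which held 61% and 32.7% of its UMIs. *Ccl8* showed no such pattern, with a UMI in 2.19% to 4.55% of the cells of 10 clusters and in none of the remaining 2.

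**Figure D3:**
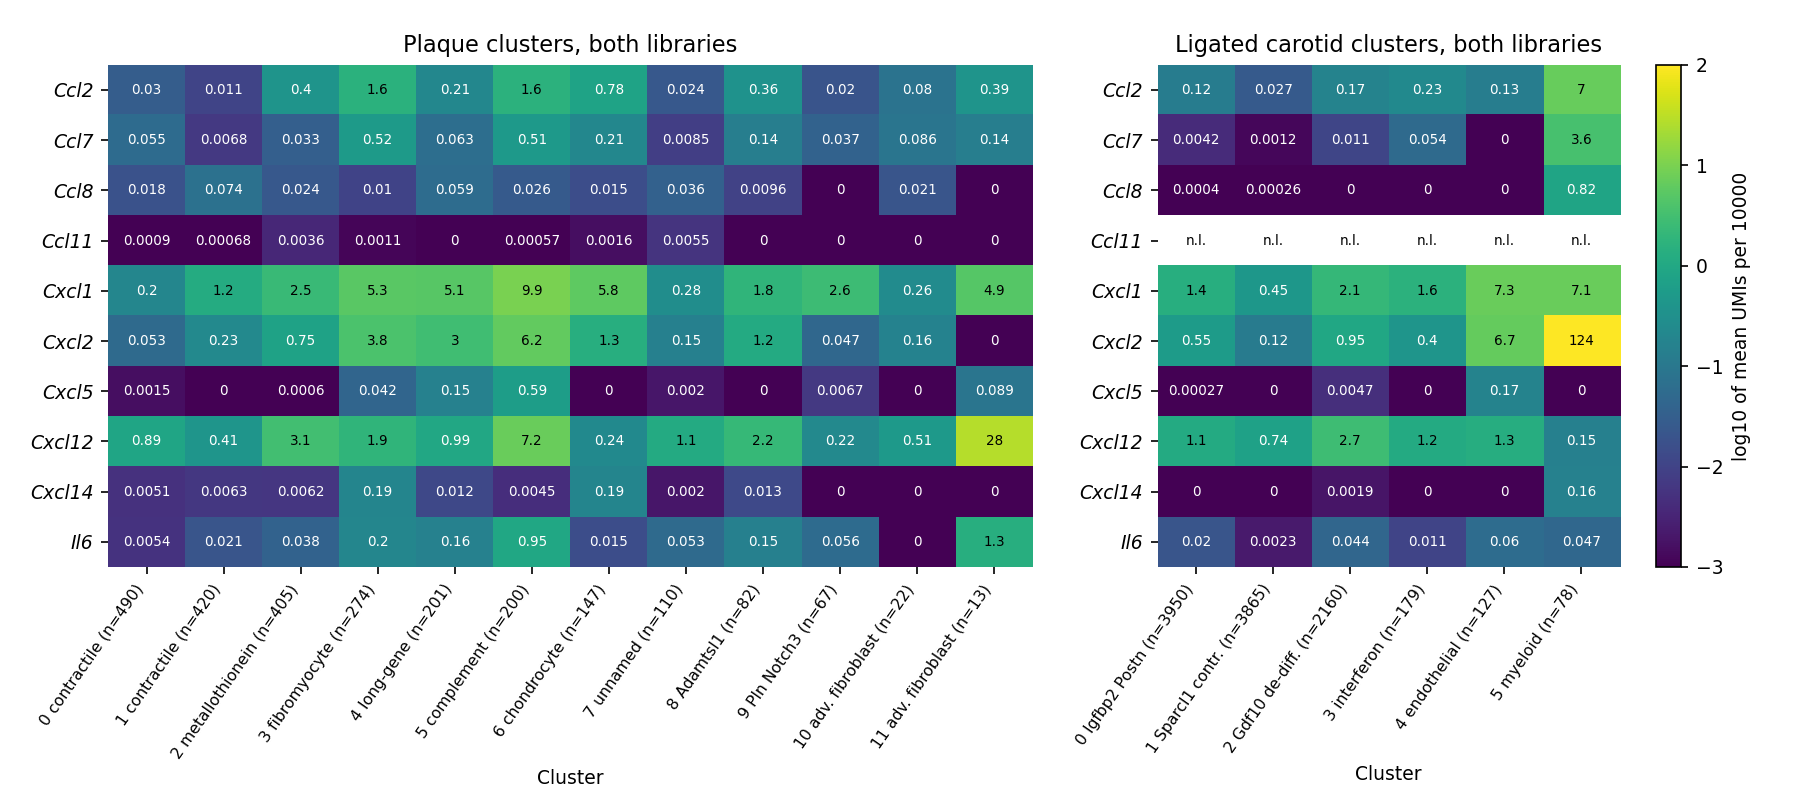
Mean UMIs per 10000 of each gene (rows) in each cluster of both libraries of an experiment (columns, number of cells in brackets), with the colour on a log10 scale and the mean printed in each tile. Among plaque clusters of more than 100 cells, Cxcl1, Cxcl2, Ccl2 and Il6 are brightest in the complement-like column, ligation Cxcl2 is brightest in the myeloid-like column at 124, and n.l. marks a gene that was not listed.

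After ligation, the chemokines had 3 kinds of source: VSMCs, endothelial-like cells and a small myeloid-like cluster. The 6 clusters were a remodelling cluster marked by *Igfbp2* and *Postn* (3950 cells), a contractile-like cluster marked by *Sparcl1* (3865), a de-differentiated cluster marked by *Gdf10* and *Lum* (2160), interferon-responding cells (179), endothelial-like cells (127) and myeloid-like cells (78). Among the VSMC clusters, the *Gdf10* cluster had the highest *Cxcl1* mean, 2.11 UMIs per 10000 with 36.7% of cells, against 1.36 (26.7%) in the *Igfbp2* *Postn* cluster and 0.447 (15.4%) in the *Sparcl1* cluster. *Cxcl12* kept the same order, with 2.75 (76.2%), 1.15 (52.8%) and 0.743 (43.7%), and myeloid-like cells had 0.149 (11.5%). *Il6* was found in 3.61%, 1.87% and 0.336% of the cells of these 3 VSMC clusters, and the *Gdf10* cluster held 48% of its UMIs. The larger *Igfbp2* *Postn* cluster held 38.4% of the *Ccl2* UMIs, against 24.6% in the *Gdf10* cluster, with means of 0.124 and 0.172 UMIs per 10000.

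Endothelial-like cells had *Cxcl1* in 83.5% of cells, with a mean of 7.3 UMIs per 10000, and *Cxcl2* in 74.8%, with a mean of 6.67. They also held 66.7% of the *Cxcl5* UMIs of the ligation libraries and had no *Ccl7* UMI. The 78 myeloid-like cells, 20 from control (0.403% of that library) and 58 from Trf2T188A (1.08%), had *Cxcl2* at a mean of 124 UMIs per 10000 and held 53.3% of all *Cxcl2* UMIs. They also held 24.8% of *Ccl2*, 78.4% of *Ccl7* and 96.5% of *Ccl8* UMIs.

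The inducible chemokines were found in the same cells. Among thinned plaque ApoE-/- cells, *Cxcl2* was found in 26.5% of those with a *Cxcl1* UMI (22.2 to 31.2%) and in 4.22% of those without (3.07 to 5.65%). In plaque Trf2T188A/ApoE-/- cells the shares were 37.9% and 5.79%, in ligation control 29.1% and 3.89%, and in ligation Trf2T188A 30% and 5.16%. Spearman's rho over cells between *Cxcl1* and *Cxcl2* was 0.388 (1410 cells), 0.497 (807), 0.367 (4642) and 0.363 (5238) in the same order of libraries, as a description over cells that share a library and a depth. The pairing was also present inside clusters. In fibromyocyte-like cells *Cxcl2* was found in 49.3% of ApoE-/- cells with *Cxcl1* and 8.75% of those without, and in 48.8% and 4.76% in Trf2T188A/ApoE-/-. In complement-like cells the shares were 49.1% and 5.36% in ApoE-/- and 58.8% and 3.33% in Trf2T188A/ApoE-/-. In the *Igfbp2* *Postn* cluster after ligation they were 24.9% and 3.16% in control and 32.9% and 4.93% in Trf2T188A.

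*Ccl2* and *Ccl7* were paired in the same way among thinned cells, and both were found with *Cxcl1*. *Ccl7* was found in 31.6% of plaque ApoE-/- cells with *Ccl2* and in 1.95% of those without, and in 22.4% and 1.22% in Trf2T188A/ApoE-/-. After ligation the shares were 6.19% and 0.176% in control and 7.36% and 0.0985% in Trf2T188A. *Cxcl1* was present in 69.6% of plaque ApoE-/- cells with *Ccl2* against 25.3% of those without, in 74.6% against 30% in Trf2T188A/ApoE-/-, and in 43.3% against 16.3% and 55.2% against 20% after ligation. Of plaque cells with *Il6*, 71.4% and 70% had *Cxcl1*, against 26% and 32.3% of those without. *Cxcl12* differed less between cells with and without *Cxcl1*, at 46.9% and 41.5% in plaque ApoE-/- (intervals 41.9 to 52% and 38.4 to 44.6%) and 44.3% and 34.7% in ligation Trf2T188A.

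**Figure D4:**
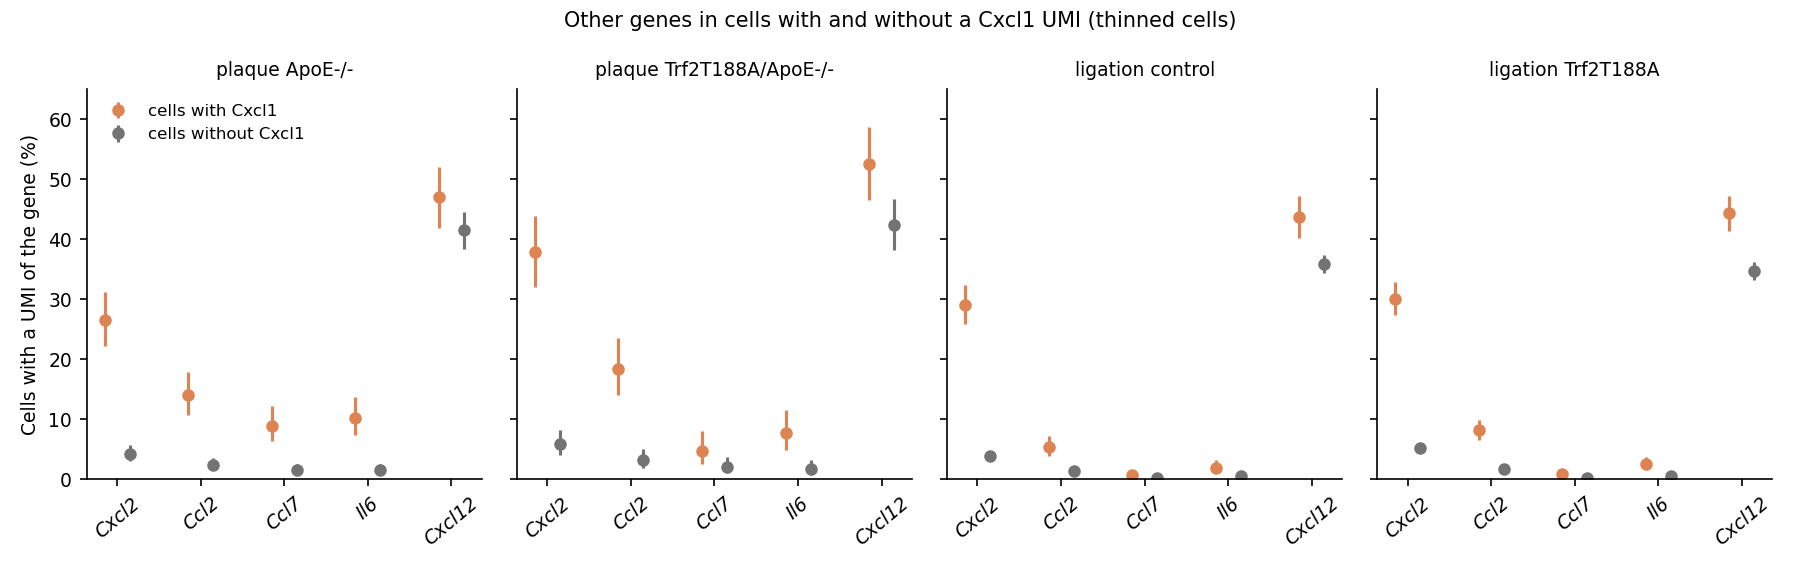
Share of thinned cells with a UMI of each gene on the horizontal axis (vertical axis, percent) among cells with (orange) and without (grey) a Cxcl1 UMI, 1 panel per library, with Clopper-Pearson 95% intervals. Cxcl2, Ccl2 and Il6 are several times more frequent with Cxcl1 in each panel, from 26.5% against 4.22% for Cxcl2 in plaque ApoE-/-, whereas Cxcl12 differs little.

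Cells with 4 or more of the 9 genes other than *Cxcl12* were few and carried a large part of the transcripts. They numbered 32 of 1410 thinned plaque ApoE-/- cells (2.27%) with 37.8% of the UMIs of these genes, and 17 of 807 Trf2T188A/ApoE-/- cells (2.11%) with 38.1%. After ligation there were 5 of 4642 control cells (0.108%, 9.24% of UMIs) and 12 of 5238 Trf2T188A cells (0.229%, 19.8%), and 9 of these 12 were myeloid-like. In plaques they were 9.4% and 5.66% of fibromyocyte-like and 11% and 11.1% of complement-like cells of ApoE-/- and Trf2T188A/ApoE-/-, and none of the contractile-like cells. Most plaque cells with any of the genes had only 1 of them, 337 of 500 in ApoE-/- and 207 of 346 in Trf2T188A/ApoE-/-.

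Among thinned cells, those with *Cxcl1* also carried more of 16 genes known to respond to NF-kB. These include *Nfkbia*, the inhibitor that NF-kB itself induces, and the adhesion molecules *Icam1* and *Vcam1*. The summed mean was 47.4 UMIs per 10000 with and 17.7 without *Cxcl1* in plaque ApoE-/-, 56.7 and 19.6 in Trf2T188A/ApoE-/-, 35.1 and 16.2 in ligation control, and 34.6 and 15.5 in ligation Trf2T188A, and 15 or 16 of the 16 genes had the larger share with *Cxcl1* in each library. In plaque ApoE-/-, *Nfkbia* was found in 92.1% of cells with and 74.1% without, *Icam1* in 41.1% and 15.9%, *Ptgs2*, the inducible cyclo-oxygenase, in 37.2% and 17.9%, and *Vcam1* in 66.1% and 42.3%. Inside the fibromyocyte-like cluster the sums were 65 and 35.7 in ApoE-/- and 54.3 and 25 in Trf2T188A/ApoE-/-. In the larger contractile-like cluster of ApoE-/- they were 9.22 and 7.54, where 8 of the 16 genes had the larger share with *Cxcl1*, and in the smaller one 36.2 and 15.5. Cells with *Ccl2* had 71.2 and those without 23.3 in plaque ApoE-/-, while for *Cxcl12* the sums were 31.4 and 21.9.

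Tissue digestion can itself switch on early response genes, and a list of 18 of these was followed beside the NF-kB list. Among thinned cells it summed to 173 UMIs per 10000 with and 110 without *Cxcl1* in plaque ApoE-/-, and to 179 and 118 in Trf2T188A/ApoE-/-. The sums were 227 and 196 in ligation control and 211 and 178 in ligation Trf2T188A, so the list moved with *Cxcl1* by a smaller ratio. In plaque ApoE-/- it summed to 189 with and 125 without *Il6*, to 159 and 124 for *Cxcl2*, and to 129 and 127 for *Ccl2*. The part of digestion in these patterns was not tested.

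Between the plaque libraries, few of the genes differed by 1.5-fold over all cells, and within cell states the values went in both directions. Over all cells, 2 of 9 genes with at least 30 UMIs over both libraries were at least 1.5-fold higher in Trf2T188A/ApoE-/- (*Ccl8* and *Cxcl14*, both rare) and none was 1.5-fold lower, where 5.46% and 5.77% of all 16088 genes tested were higher and lower by that ratio. The log2 ratio of means, Trf2T188A/ApoE-/- over ApoE-/-, was 0.44 for *Cxcl1* (0.39 to 0.50), with means of 2.65 and 3.6 UMIs per 10000 in ApoE-/- and Trf2T188A/ApoE-/-. It was 0.35 for *Cxcl2* (means 1.35 and 1.72), 0.13 for *Cxcl12* (1.89 and 2.07), 0.05 for *Ccl2* (0.462 and 0.479) and -0.32 for *Ccl7* (0.156 and 0.125). That of *Il6* was 0.38, but -0.16 without the highest cell of each library, and that of *Ccl8* was 1.40 and 0.50 without it. *Cxcl14* had a log2 ratio of 1.08 and of 1.38 without the highest cells. The median over the 9 genes was 0.38, beside -0.01 over all genes tested. The count of higher genes rested on rare transcripts. With the highest cell of each library left out, 1 gene was higher and none lower, against 3.69% and 6.77% of all genes. Taking ratios of summed UMIs gave 1 higher and 1 lower, against 3.08% and 5.28%. A pseudocount of 0.1 left none in either direction, against 0.224% and 0.118%, as did a pseudocount of 1, against 0.0497% and 0.0124%. Without the cells holding any immune or endothelial UMI (705 ApoE-/- and 433 Trf2T188A/ApoE-/- cells), 2 were higher and 2 lower, against 5.16% and 7.24%, and *Cxcl2* had a log2 ratio of -0.71. The genes used for this setting include *Pecam1*, found in 40.8% of ApoE-/- and 36.3% of Trf2T188A/ApoE-/- cells. The median over 10 endothelial markers was 1.7% and 1.29%, so the setting does not leave out endothelial or immune cells alone.

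Shares of thinned cells gave the same direction for the neutrophil chemokines. *Cxcl1* had shares of 27.8% (25.5 to 30.2%) in ApoE-/- and 33.7% (30.4 to 37.1%) in Trf2T188A/ApoE-/-, and *Cxcl2* in 10.4% (8.88 to 12.1%) and 16.6% (14.1 to 19.4%). These intervals do not overlap, which covers counting error and not the difference between animals. For *Ccl2* the shares were 5.6% (4.46 to 6.93%) and 8.3% (6.49 to 10.4%). For *Cxcl12* they were 43% and 45.8%, for *Il6* 3.97% and 3.72% and for *Ccl7* 3.62% and 2.97%, each with overlapping intervals.

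The fibromyocyte-like and the chondrocyte-like clusters differed between genotypes in opposite directions. In fibromyocyte-like cells (154 ApoE-/- and 120 Trf2T188A/ApoE-/-), 5 of 8 genes were at least 1.5-fold lower in Trf2T188A/ApoE-/-, against 11.5% of all genes tested in this cluster, and 2 were higher, against 6.07%. *Ccl2* had a log2 ratio of -2.11 (means 2.39 and 0.554 UMIs per 10000), *Ccl7* of -2.60, *Il6* of -1.71, *Cxcl1* of -1.31 and *Cxcl2* of -1.27 (means 5.12 and 2.12). Without the highest cell of each library these were -2.15, -3.04, -2.12, -1.42 and -1.54. The lower means came with smaller differences in how many cells had the gene: thinned shares in ApoE-/- and Trf2T188A/ApoE-/- were 21.5% (15.2 to 28.9%) and 17% (10.4 to 25.5%) for *Ccl2* and 46.3% (38.1 to 54.7%) and 40.6% (31.1 to 50.5%) for *Cxcl1*. The genes that were higher in this cluster were *Cxcl14* (log2 ratio 0.82) and *Cxcl5* (5 and 36 UMIs), and *Cxcl12* had 0.31. The 16 NF-kB genes summed to 48.8 and 36.4 in these cells.

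In complement-like cells (113 ApoE-/- and 87 Trf2T188A/ApoE-/-), *Ccl2*, *Cxcl1*, *Cxcl2* and *Il6* were at least 1.5-fold higher in Trf2T188A/ApoE-/- (4 of 7 genes, against 7.4% of all genes tested) and *Cxcl5* was lower (against 8%). The log2 ratios were 0.85 for *Ccl2*, 0.60 for *Cxcl1*, 0.89 for *Cxcl2* (means 4.54 and 8.43), 1.17 for *Il6* and -0.77 for *Cxcl5*. *Il6* rested on 1 cell with 53.6% of the Trf2T188A/ApoE-/- UMIs of the cluster, and had 0.45 without the highest cells. Thinned shares of *Cxcl1*, 48.6% (38.9 to 58.4%) and 63% (51.5 to 73.4%), overlapped in their intervals.

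In chondrocyte-like cells (83 and 64), 5 of 6 genes were at least 1.5-fold higher in Trf2T188A/ApoE-/- and none lower, against 10.8% and 12.3% of all genes tested. *Cxcl1* had means of 2.82 and 9.65 (log2 ratio 1.78), *Cxcl2* of 0.822 and 2 (1.28) and *Cxcl12* of 0.119 and 0.397 (1.74, from 30 and 45 UMIs). *Ccl2* had 24 UMIs in 4 ApoE-/- cells and 497 UMIs in 8 Trf2T188A/ApoE-/- cells. The NF-kB genes summed to 35.4 and 56.7. The thinned shares of *Cxcl1* were 45% and 51.7%, so here too the mean differed more than the share. In the larger contractile-like cluster *Cxcl1* had a log2 ratio of 0.34 and *Cxcl12* of 0.04, and none of 3 genes tested there passed 1.5-fold, against 4.15% higher and 5.85% lower of all genes.

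The remaining plaque clusters had few genes with enough UMIs. The smaller contractile-like cluster had none of 3 past 1.5-fold in either direction, against 4.24% higher and 6.99% lower of all genes. In the metallothionein cluster *Ccl2* was lower (300 and 113 UMIs, log2 ratio -1.62) and none of the other 4 genes passed, against 3.81% and 5.98%. Long-gene cells had 2 of 6 higher (*Ccl2* and *Cxcl5*) and 2 lower (*Cxcl2* and *Il6*, which had 88 and 4 UMIs), against 9.59% and 11.9%. All 56 *Cxcl5* UMIs were in 1 Trf2T188A/ApoE-/- cell, and 1 ApoE-/- cell held 79 of the 88 *Il6* UMIs. Of the 51 *Ccl2* UMIs in Trf2T188A/ApoE-/-, 25 were in 1 cell. The thinned share of *Cxcl2* was 22.9% in ApoE-/- and 24.2% in Trf2T188A/ApoE-/-. Only 48 of 86 and 62 of 115 cells of this cluster were deep enough to be thinned. The Adamtsl1 cluster had *Cxcl12* higher (log2 ratio 0.90) and *Ccl2*, *Ccl7* and *Cxcl2* lower among 5, against 10% and 12.6%. The lower calls rested on 1 ApoE-/- cell for each gene, with 100 of 100, 47 of 47 and 305 of 306 UMIs. Without the highest cell of each library the direction turned. The means were then 0, 0 and 0.00611 in ApoE-/- and 0.0791, 0.0102 and 0.132 in Trf2T188A/ApoE-/-. *Cxcl1* was lower, and no gene higher, in the unnamed cluster of 110 cells, against 7.4% and 11.8%, and in the *Pln* *Notch3* cluster, against 10% and 10.5%. The unnamed cluster had 51 *Cxcl1* UMIs in ApoE-/- and 16 in Trf2T188A/ApoE-/-, 14 of the 16 in 1 cell, and thinned shares of 11.3% and 3.85%. The *Pln* *Notch3* cluster had 183 and 19, with 79 of the 183 in 1 cell and thinned shares of 25.6% and 22.7%. Since the state of a cell and the authors' lower limit of detected genes, which differed between the plaque libraries, both move with the library, their part in these values was not tested. Whether the ratios differ between clusters could not be tested with 1 library per genotype.

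**Figure D5:**
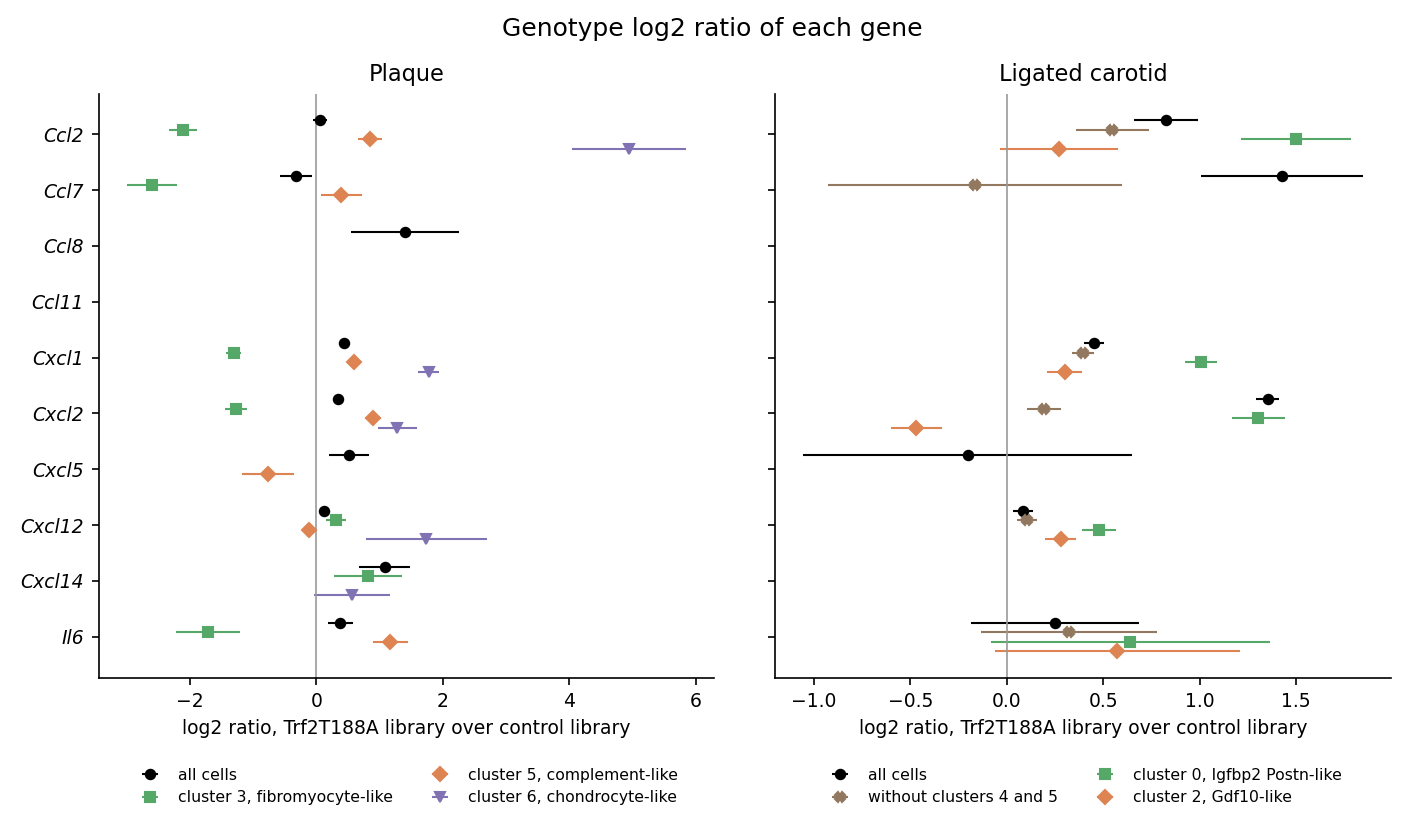
Log2 ratio of mean UMIs per 10000, Trf2T188A library over the control library (horizontal axis, 95% counting intervals), for each gene in plaque (left) and ligated carotid (right), over all cells and in named clusters, where both libraries had at least 10 UMIs. Clusters 4 and 5 of the right panel are the endothelial-like and myeloid-like ones. In plaque, Ccl2, Ccl7, Cxcl1, Cxcl2 and Il6 lie left of 0 in fibromyocyte-like cells, and Ccl2, Cxcl1 and Cxcl2 lie right of 0 in complement-like and chondrocyte-like cells.

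After ligation, 4 of 8 genes (*Ccl2*, *Ccl7*, *Ccl8* and *Cxcl2*) were at least 1.5-fold higher over all Trf2T188A cells and none was lower, against 5.6% and 4.09% of all 16665 genes tested. The log2 ratio, Trf2T188A over control, was 1.35 for *Cxcl2* (means 0.814 and 2.08 UMIs per 10000), 1.43 for *Ccl7* (0.0171 and 0.046), 0.82 for *Ccl2* (0.108 and 0.192) and 0.45 for *Cxcl1* (1.09 and 1.49). For *Cxcl12* it was 0.08, for *Il6* 0.25 (-0.18 to 0.69) and for *Cxcl5* -0.20 (-1.06 to 0.65). Myeloid markers moved with these values: they summed to 0.991 in control and 2.58 in Trf2T188A, and Trf2T188A had the larger number of myeloid-like cells. Without the cells holding any immune or endothelial UMI no gene was higher or lower by 1.5-fold, against 4.53% and 4.05% of all genes. This setting also left out VSMCs, since *Pecam1* was found in 13.1% of control and 18.2% of Trf2T188A cells of the contractile-like *Sparcl1* cluster. Without the myeloid-like and endothelial-like clusters none of 6 genes tested passed 1.5-fold in either direction, against 4.51% and 4.22% of all genes. The log2 ratios were then 0.19 for *Cxcl2*, -0.16 for *Ccl7*, 0.55 for *Ccl2*, 0.40 for *Cxcl1*, 0.10 for *Cxcl12* and 0.32 for *Il6*. On all cells, summed UMIs gave 4 higher and 1 lower, against 5.11% and 3.7%, a pseudocount of 0.1 gave 1 higher and none lower, against 0.354% and 0.066%, and a pseudocount of 1 the same counts, against 0.024% and 0%.

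Within VSMCs the genotype difference was seen in the *Igfbp2* *Postn* cluster (2040 control and 1910 Trf2T188A cells), where 4 of 5 genes were at least 1.5-fold higher in Trf2T188A and none was lower, against 5.98% and 3.9% of all genes tested there. *Ccl2* had 150 and 545 UMIs (means 0.066 and 0.187 UMIs per 10000), *Cxcl1* means of 0.917 and 1.84 (log2 ratio 1.01) and *Cxcl2* means of 0.323 and 0.798 (1.30). The log2 ratio of *Il6* was 0.64, from 28 and 66 UMIs, with an interval that includes 0 (-0.08 to 1.36). Leaving out the highest cell of each library gave log2 ratios of 1.53, 1.03, 1.32 and 0.88. The shares of thinned cells differed in the same direction, with 16.2% (14.6 to 18%) and 26% (24 to 28%) for *Cxcl1*, 6.69% (5.62 to 7.9%) and 12.2% (10.7 to 13.8%) for *Cxcl2* and 1.5% (1.01 to 2.15%) and 3.92% (3.09 to 4.9%) for *Ccl2*. For *Il6* they were 0.726% (0.398 to 1.22%) and 1.18% (0.742 to 1.78%), with overlapping intervals. *Cxcl12* had a log2 ratio of 0.48 in this cluster. The NF-kB genes summed to 16.9 and 21.1 and the digestion-induced genes to 192 and 178.

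Fewer genes passed 1.5-fold in the *Sparcl1* and *Gdf10* clusters. In the *Sparcl1* cluster, *Cxcl1* had a log2 ratio of 0.13, *Cxcl2* of 0.21 and *Cxcl12* of -0.25, and none of 4 genes tested passed 1.5-fold, against 3.24% higher and 4.36% lower of all genes. In the *Gdf10* cluster, *Cxcl1* had 0.30, *Cxcl12* 0.28 and *Ccl2* 0.27. *Cxcl2* had -0.47 there although its thinned share was larger in Trf2T188A, 16.2% against 13.6% in control. Of the 6 genes tested in the *Gdf10* cluster 1 (*Ccl7*) was 1.5-fold higher and none lower, against 4.39% and 3.83% of all genes. *Ccl7* had 6 UMIs in control and 24 in Trf2T188A, 15 of the 24 in 1 cell. Its thinned shares were 0.28% and 0.308%. In interferon-responding cells none of 4 genes was higher and 2 were lower (*Ccl2*, with 38 and 0 UMIs, and *Cxcl1*), against 7.36% and 9.98%. Endothelial-like cells had 1 of 5 higher (*Cxcl2*, log2 ratio 0.66) and 3 lower (*Ccl2*, *Cxcl5* and *Cxcl12*, the last at -0.90), against 8.46% and 12.6%. Myeloid-like cells, 20 in control and 58 in Trf2T188A, had 3 of 5 higher (*Ccl8*, *Cxcl1* and *Cxcl2*, the last at 0.81) and none lower, against 15.4% and 18.1%. The difference between clusters was not tested.

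Few VSMCs had a UMI of the signalling receptors of these chemokines. In plaque ApoE-/- and Trf2T188A/ApoE-/-, the *Ccl2* receptor *Ccr2* was found in 0% and 0.108% of cells, the *Cxcl1* and *Cxcl2* receptor *Cxcr2* in 0.533% and 0.431%, and the *Cxcl12* receptor *Cxcr4* in 0.599% and 0.323%. For the 0 of 1502 cells, 3 counts would allow up to 0.2% of cells with a UMI, which does not limit the share of cells expressing the gene. The exception was *Ackr3*, the decoy receptor that binds *Cxcl12* and removes it, found in 30.1% and 36.6% of plaque cells (log2 ratio 0.51) and in 12.7% and 16.6% of ligation cells (0.13). The signalling subunit of the IL6 receptor, *Il6st*, was found in 86.8% and 85.4% of plaque cells and 50.2% and 54.4% of ligation cells, and the IL6-binding subunit *Il6ra* in 14% and 15% and in 3.4% and 3.8%. In ligation cells *Ccr2* and *Cxcr4* were highest in the myeloid-like cluster, in 20.5% and 35.9% of its cells.

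Further members of the pathway came from lists written for this work. Of 26 other chemokine genes, 13 had enough UMIs in plaques, of which 7 were at least 1.5-fold higher in Trf2T188A/ApoE-/- and none lower, against 5.46% and 5.77% of all genes tested, with a median log2 ratio of 0.61. The 11 myeloid markers moved with them (0.166 and 0.299 UMIs per 10000 in ApoE-/- and Trf2T188A/ApoE-/-), and their part was not tested. They included *Ccl19*, the lymphocyte and dendritic cell chemokine found in 64% of complement-like cells (20.2% and 26.2% of all ApoE-/- and Trf2T188A/ApoE-/- cells, log2 ratio 0.61), and *Ccl4*, a macrophage chemokine (3.99% and 6.24%, 1.99). *Cx3cl1*, the membrane-bound chemokine fractalkine, was found in 41% and 46.1% (0.19) and in 82.1% of fibromyocyte-like cells, and *Cxcl10*, an interferon-induced chemokine, in 10.7% and 11.5% (0.16). After ligation 8 of 16 other chemokines were higher and 2 lower, against 5.6% and 4.09% of all genes, with a median of 0.61. Without the myeloid-like and endothelial-like clusters 2 of 11 were higher and 4 lower, against 4.51% and 4.22%, with a median of 0.03. *Ccl3* and *Ccl4*, macrophage chemokines named here after their values were seen, were found in 70.5% and 83.3% of myeloid-like cells.

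Of the 13 genes of the interleukin 6 family and its receptors, 1 of 11 tested was higher and 2 lower in plaque Trf2T188A/ApoE-/- cells, with a median log2 ratio of 0.01. Here and for the lists that follow, 5.46% and 5.77% of all plaque genes tested were higher and lower. The one that was higher was *Lif*, a cytokine of the family (1.05), found in 39.5% of chondrocyte-like cells. The 15 upstream cytokines and sensors had 3 of 13 higher and none lower, with *Tlr2* at 0.62 and the receptors *Il1r1* and *Tnfrsf1a*, present in 71.4% and 67.4% of ApoE-/- cells, at 0.16 each. All 16 NF-kB responsive genes were tested in plaques, 3 were higher and none lower, with *Icam1* at 0.99 and *Tnfaip2* at 0.88, and their summed mean was 27.1 and 33.1. After ligation, where 5.6% and 4.09% of all genes were higher and lower, none of the 16 passed 1.5-fold in either direction and their median was 0.02.

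Genes whose level followed a member most closely were sought over the means of clusters within libraries (21 points in plaques, 12 after ligation, on the log2 scale), as a description of points that share libraries. *Cxcl1* was most like *Nfkbia* (Pearson's r 0.901), *Gch1* (0.883) and *Tmem120a* (0.867) among 11999 plaque genes. *Ccl2* was most like *Prkar1b* (0.948) and *Ccl7* (0.909), and *Cxcl2* like *Gpr39* (0.932). The genes most like *Cxcl12* were *H6pd* (0.908), *Ifi47* (0.904), an interferon-induced GTPase, and *H2-K1* (0.883), a class I antigen-presentation gene. *Cxcl1* had r of 0.845 with *Cxcl2* and of 0.327 with *Cxcl12* over the same plaque points, and of 0.797 and -0.149 after ligation.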

How the data were processed

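Single-cell suspensions were profiled with 10x 3′ v3 chemistry in 4 libraries, 1 per genotype in each experiment. Per the submitters' processing notes, reads were processed with Cell Ranger 6.1.2, Seurat 3.2.1 and R 3.6.2 (ligation) or Cell Ranger 7.0.0, Seurat 4.3.0 and R 4.2.2 (plaque) on GRCm38. The authors filtered cells, with a lower limit of detected genes that differed between the plaque libraries, kept plaque clusters that expressed Confetti, and deposited normalised signal, the UMIs of a gene per 10000 UMIs of a cell on a linear scale. Whole UMIs were recovered from these steps (100% of values within 0.01 of a whole number).

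Means of the deposited signal, shares of cells with a UMI (Clopper-Pearson intervals, 95%) and log2 ratios of means without a pseudocount (delta-method counting intervals, at least 10 UMIs in each library) were computed with Python 3.11.15, numpy 2.4.6, scipy 1.17.1 and pandas 2.3.3. No count model was fitted, because 1 library per genotype leaves no replicate. A gene was tested for the 1.5-fold limit where it had at least 30 UMIs over both libraries. Thinning, to 8000 UMIs in plaque and 5000 in ligation cells, left out 92 ApoE-/-, 122 Trf2T188A/ApoE-/-, 325 control and 154 Trf2T188A cells that were shallower. Clusters were made with Seurat 5.3.0 in R 4.3.3 (2000 variable genes without 60 pathway genes in plaque and 79 in ligation, 18 and 17 principal components, resolution 0.9 and 0.2). A cluster took a name at a mean log2 ratio of 0.5 over its marker list with at least 3 markers reaching it, limits set after the values were seen. Doublet calling in scanpy 1.11.5 marked between 0% and 0.323% of cells and cannot be taken as working, so an alternative left out the highest 5% of scores. The log2 ratios were checked on simulated counts.

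The 10 genes and the gene lists were chosen with earlier results of these data known. The genes named were the 10, genes of 8 pathway lists found in at least 5% of the cells of a library or known as their receptors, and the 3 genes most like each (Pearson's r of log2(mean + 0.1) over clusters within libraries of at least 20 cells). Not every gene that this rule names is reported here. Alternatives were the ratio of summed UMIs, pseudocounts of 0.1 and 1, a 2-fold limit, other clusterings, unthinned cells, and leaving out cells under 2000 genes, high doublet scores, cells without the reporter or cells with an immune or endothelial UMI. Leaving out the highest cell of each library and the ligation myeloid-like and endothelial-like clusters were added after seeing the data.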

Additional observations from a re-analysis of the deposited data

Results flagged for a closer look

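*Ccl7* and *Cxcl5* went in opposite directions in the plaque and ligation experiments. *Ccl7* had a log2 ratio, Trf2T188A over control library, of -0.32 in plaque and 1.43 after ligation, where 78.4% of its UMIs were in myeloid-like cells. *Cxcl5* had 0.51 in plaque and -0.20 after ligation (-1.06 to 0.65), with 28 and 26 UMIs in the ligation libraries. Without the highest cells *Cxcl5* had 0.04 after ligation, and without cells holding an immune or endothelial UMI the plaque values were 0.08 for *Ccl7* and -0.11 for *Cxcl5*, so these directions do not hold under each setting. After ligation *Ccl7* had -0.16 without the myeloid-like and endothelial-like clusters. The difference between experiments was not tested, since each genotype had 1 library in each.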

How the results depend on the processing

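Of 9 plaque genes, the 2 that were 1.5-fold higher in Trf2T188A/ApoE-/- became 1 with the ratio of summed UMIs, 1 without the highest cell of each library, 0 with a pseudocount of 1 and 0 with 0.1. The plaque count of lower genes went from 0 to 1 with summed UMIs and to 2 without cells holding an immune or endothelial UMI, a setting that left out 705 and 433 cells. After ligation the 4 higher genes became 1 with a pseudocount of 1, 1 with 0.1, 0 without cells holding an immune or endothelial UMI and 0 without the myeloid-like and endothelial-like clusters, and summed UMIs gave 1 lower gene in place of 0. The log2 ratio of *Ccl8* in plaque reversed to -0.21 without cells under 2000 genes, and that of *Ccl7* after ligation to -0.16 without the myeloid-like and endothelial-like clusters. With coarser clustering no complement-like class formed, so the 5 genes highest there became 0. After ligation coarser clustering gave no cluster the name of the *Gdf10* class, so the values of that cluster also depend on the resolution. Without thinning, *Cxcl2* was found in 7.2% and 12.9% of plaque ApoE-/- and Trf2T188A/ApoE-/- cells without *Cxcl1*, in 32.7% and 4.78% of control cells with and without it, and in 36.1% and 6.21% of Trf2T188A ligation cells. Of 140 genotype ratios under alternatives, 85 stayed within the counting interval of the reported value, 53 moved out of it and 2 that had been past 1.5-fold changed sign, while 11 in all had the other sign. Besides *Ccl8* and *Ccl7* above, the sign changed for plaque *Ccl2* with summed UMIs (-0.05), for plaque *Ccl2* (-0.02) and *Il6* (-0.16) and ligation *Cxcl5* (0.04) without the highest cells, and in plaque without cells holding an immune or endothelial UMI for *Ccl7* (0.08), *Cxcl2* (-0.71), *Cxcl5* (-0.11), *Cxcl12* (-0.20) and *Il6* (-1.30). The causes were not tested. No paired analysis was possible because each genotype had 1 library in each experiment. *Ccl11*, and *Ccl8* and *Cxcl14* after ligation, are limited by their few UMIs.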

Other observations

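Plaque cells with a UMI of *Cdkn2a*, which encodes the senescence marker p16, more often had *Ccl2*, *Ccl7*, *Cxcl1* and *Cxcl2* in the ApoE-/- library. Of 49 such thinned ApoE-/- cells, *Ccl2* was found in 36.7% (23.4 to 51.7%) against 4.48% (3.45 to 5.72%) of the 1361 others, *Ccl7* in 30.6% against 2.65% and *Cxcl1* in 61.2% against 26.6%. Inside the fibromyocyte-like cluster *Ccl2* was found in 56.7% of 30 cells with *Cdkn2a* (37.4 to 74.5%) and 12.6% of 119 without (7.23 to 19.9%), and *Cxcl1* in 66.7% and 41.2%. In Trf2T188A/ApoE-/-, *Ccl2* was found in 16.4% of 55 cells with *Cdkn2a* (7.77 to 28.8%) and 7.71% without (5.91 to 9.86%), and *Cxcl1* in 36.4% and 33.5%. Within its fibromyocyte-like cells *Ccl2* was found in 25.8% and 13.3% and *Cxcl1* in 38.7% and 41.3%, and within its chondrocyte-like cells *Ccl2* in 0 of 11 cells with *Cdkn2a* (0 to 28.5%) and 14.9% without. After ligation the shares of *Ccl2* were 3.61% and 1.99% in control (277 cells with *Cdkn2a*) and 7.99% and 2.72% in Trf2T188A (388 cells), and those of *Cxcl1* were 18.1% and 16.8% in control and 35.1% and 20% in Trf2T188A. In the *Gdf10* cluster of control the *Ccl2* shares were 2.33% and 3.85%. Cells with a UMI of *Cdkn1a*, which encodes p21, had larger *Ccl2* and *Cxcl1* shares than those without in each library. Those of *Ccl2* were 7.95% and 2.8% in plaque ApoE-/- and 11.2% and 4.57% in Trf2T188A/ApoE-/-. After ligation they were 2.58% and 0.842% in control and 3.92% and 0.924% in Trf2T188A. Within fibromyocyte-like cells they were 24.8% and 13.6% in ApoE-/- and 18.3% and 15.2% in Trf2T188A/ApoE-/-, with overlapping intervals. These are cells of single libraries, and no test across animals was possible.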
